A study of Glycine max with 16 samples.

Results

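The soybean genes named PHR followed by a number were followed through a short warming curve of the leaf. They are named after Arabidopsis PHR1, a transcription factor of the MYB-CC class, which joins a MYB-type DNA-binding domain to a coiled coil. The array's platform annotation gives 8 probe sets of 8 such genes, PHR7, PHR13, PHR18, PHR20, PHR24, PHR25, PHR33 and PHR35, each chosen by its symbol or a synonym. These are 8 of the 8677 probe sets that the annotation assigns to a single gene, among 61035 once 135 controls are left out, and 8 of the 35 PHR symbols in a RefSeq gene table of the assembly Glycine_max_v4.0. The other PHR genes were not analysed here.

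In Arabidopsis and rice, PHR proteins switch on the phosphate starvation programme by binding a short sequence named P1BS in the promoters of their targets. When phosphate is plentiful, SPX-domain proteins bind inositol pyrophosphates and hold PHR proteins away from DNA, so that much of the control acts on the protein and not on its mRNA. Targets include phosphate transporters, acid phosphatases that free phosphate from organic compounds, and enzymes that replace phospholipids by galactolipids and sulfolipids. In soybean, GmPHR25 has been described as an activator of phosphate starvation genes. No single role is given here for the other 7 soybean members.

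Leaf RNA of Glycine max cultivar Williams 82 was hybridised to 16 arrays, 4 for each of 4 states, with no mutant or transgene in any group and no plant age given. The states were the growth temperature of 22 °C (baseline), the temperature at which photosynthesis was highest (optimum), and warmer points where photosynthesis was 20% and 30% below that optimum. Per the labels' protocols, air was warmed in steps of 2 °C every 10 min towards 42 °C and a whole curve lasted 3 to 4 h, so time and temperature moved together. All plants were fertilised weekly, and no group was starved of phosphate. The labels do not say whether a plant gave leaves for several states, and p-values measure the spread between these arrays, which may be technical.

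Values are MAS5 signals, the Affymetrix summary of a probe set on a linear scale, and log2 changes carry ± 1 standard error from limma and a p adjusted over all probe sets tested, with a threshold of 0.05. All 8 PHR probe sets lay above the filter on dim signals. Of 128 PHR values, 127 lay above the array's background level, which was set from probe sets of other organisms. That level was 112 ± 30.8 at 30% inhibition, 125 ± 28.1 at 20% inhibition and 86.2 ± 11.9 at the optimum, against 81.8 ± 7.0 at baseline (SD, n = 4), and it enters the results below as a covariate in an alternative fit. The log2 difference of 3′ over 5′ probe sets of the GlutTrans control gene, a sign of RNA integrity, was 0.83 ± 0.13 at 30% inhibition, 0.89 ± 0.16 at 20% inhibition and 0.80 ± 0.16 at the optimum, against 0.07 ± 0.25 at baseline (SD, n = 4), and its part was not tested. Replicate 3 of 20% inhibition had the highest background, 163, and the lowest median correlation with the other arrays, 0.835. Of 17 leaf marker probe sets, such as those of CAB3 and RCA14, 14 lay above background on every array at 30% inhibition and 15 at baseline. Root nodule markers, a list that also holds the sucrose synthase gene SS, had 6 of 20 above background at 30% inhibition and 7 at baseline. Their summed signal was 11305 to 17026 at 30% inhibition and 7793 to 9469 at baseline. Of 16 seed marker probe sets 3 lay above background in each state, with sums of 13293 to 28123 at 30% inhibition and 23557 to 35091 at baseline, and the part of other cells in the results was not tested. In bulk leaf, fewer cells of a type and less RNA per cell cannot be told apart.

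The 8 genes did not move together. At 30% inhibition against baseline PHR13 and PHR18 rose, PHR35 and PHR7 fell, and the other 4 did not pass the threshold. That is 4 of 8 probe sets, where 34.7% of all 30517 probe sets tested passed, 16.9% higher and 17.7% lower. At 20% inhibition PHR13 and PHR18 rose and PHR20 fell, 3 of 8 where 35.6% passed, 17.0% higher and 18.6% lower. At the optimum PHR20 fell and no other PHR gene passed, 1 of 8 where 12.9% passed, 6.63% higher and 6.26% lower. By the moderated F-test 4 of 8 differed among the states (PHR13, PHR20, PHR35 and PHR24), where 35.5% of all probe sets did. The median PHR log2 change was -0.08 at 30% inhibition, 0.08 at 20% inhibition and -0.15 at the optimum, against -0.01, -0.01 and 0.00 over all probe sets tested. With 8 members, none of these counts is read as particular to the family.

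**Figure D1:**
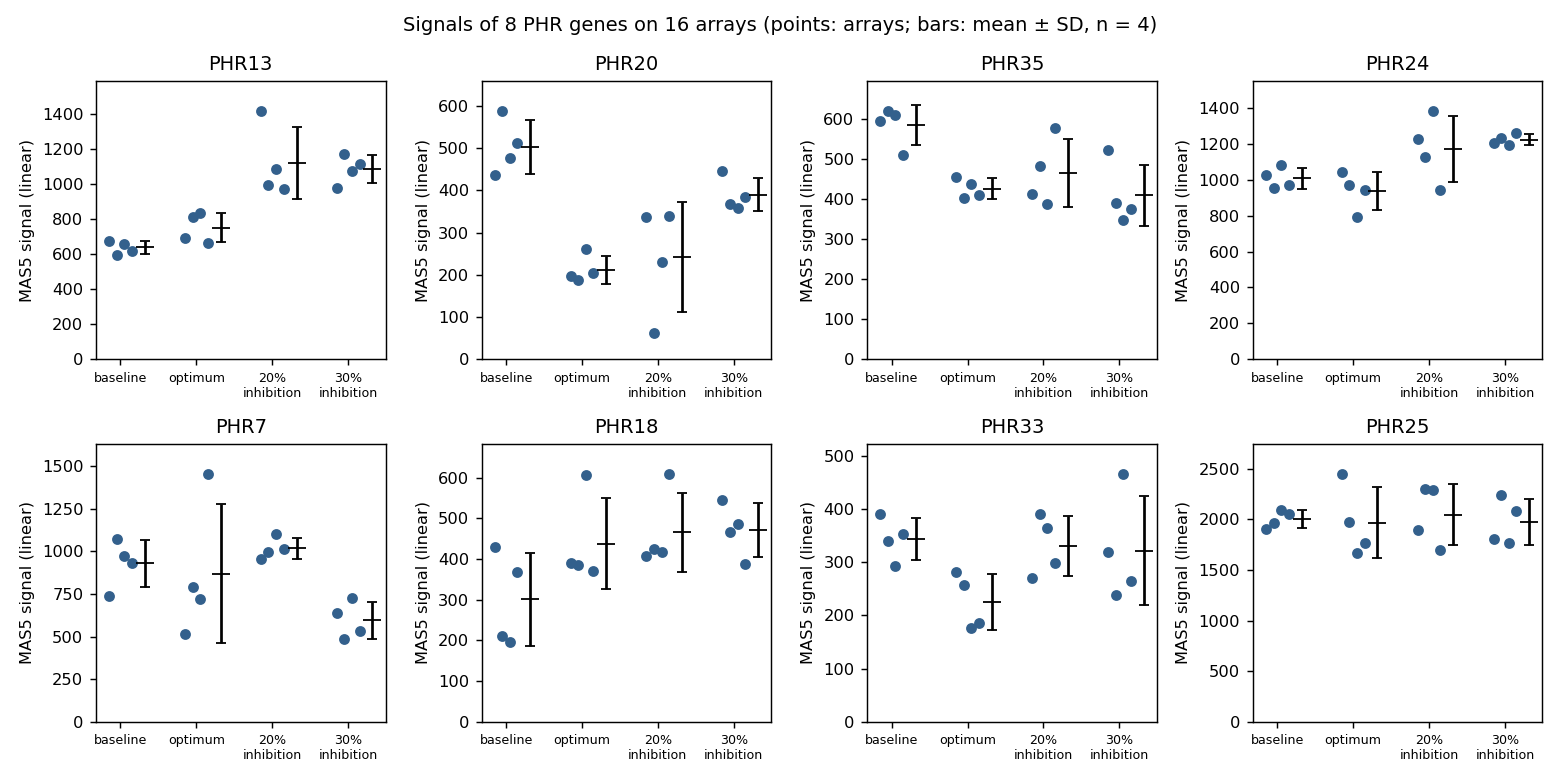
MAS5 signal (linear, from 0) of each of the 8 PHR genes on the 4 arrays of each state, with the mean ± SD beside the points. PHR13 stands higher on all 8 arrays of the inhibited states than on any of the other 8, PHR20 has its lowest mean signal at the optimum and its lowest single value at 20% inhibition, and the PHR25 means of the 4 states lie between 1969 and 2048.

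PHR13 rose once photosynthesis was inhibited. Its signals were 676, 596, 660 and 618 at baseline, 694, 809, 832 and 664 at the optimum, 1418, 995, 1087 and 971 at 20% inhibition, and 978, 1170, 1074 and 1112 at 30% inhibition. All 8 values of the inhibited states lay above all 8 of the earlier states, while the ranges of baseline and optimum overlapped, as did those of 20% and 30% inhibition. Of all probe sets tested, 34.8% had no overlap between 30% inhibition and baseline, 32.4% between 20% inhibition and baseline, and 20.6% between 20% inhibition and the optimum. The mean was 1084 ± 80.6 at 30% inhibition, 1118 ± 206 at 20% inhibition and 749.6 ± 83.2 at the optimum, against 637 ± 37.0 at baseline (SD, n = 4).

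The log2 change of PHR13 was 0.76 ± 0.13 at 30% inhibition against baseline (adjusted p = 0.000221), a 1.70-fold higher signal. At 20% inhibition it was 0.80 ± 0.13 (adjusted p = 0.000148), and at the optimum 0.23 ± 0.13 (adjusted p = 0.283), which missed the threshold. From the optimum the step to 20% inhibition was 0.57 ± 0.13 (adjusted p = 0.0066), 1 of 8 PHR genes to pass where 16.6% of all probe sets did, 7.87% higher and 8.7% lower. The step to 30% inhibition was 0.54 ± 0.13 (adjusted p = 0.0106), and PHR24 also passed there, 2 of 8 where 14.0% did, 6.86% higher and 7.12% lower. This contrast of 30% inhibition with the optimum was added after seeing the data. The difference of 30% from 20% inhibition was -0.03, with a 95% interval of -0.30 to 0.24. Against baseline the calls at both inhibited states held without any single array and in all 9 other settings. With background as a covariate the changes were 0.73 ± 0.15 at 30% inhibition (adjusted p = 0.00235) and 0.75 ± 0.17 at 20% inhibition (adjusted p = 0.00561), and that from the optimum to 20% inhibition was 0.52 (adjusted p = 0.0676), which ended that call. The state accounted for 85.4% of the variance of PHR13 over the arrays, the highest share of the 8 genes.

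PHR20 fell at the optimum and at 20% inhibition, and did not differ past the threshold from baseline at 30% inhibition. Its signals were 436, 589, 476 and 512 at baseline, 196, 186, 261 and 203 at the optimum, 338, 62.8, 230 and 339 at 20% inhibition, and 446, 368, 359 and 384 at 30% inhibition. Every optimum array lay below every baseline array, and every array at 30% inhibition lay above every array at the optimum and at 20% inhibition. Of all probe sets tested, 19.7% had no overlap between optimum and baseline, 21.0% between 30% inhibition and the optimum, and 2.06% between 30% and 20% inhibition. The value of 62.8, on replicate 2 of 20% inhibition, was the only PHR value below background, which was 129 on that array.

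PHR20 averaged 212 ± 33.5 at the optimum, against 503 ± 64.9 at baseline (SD, n = 4), a log2 change of -1.25 ± 0.38 (adjusted p = 0.0389). At 20% inhibition the change was -1.31 ± 0.38 (adjusted p = 0.0128), and at 30% inhibition -0.37 ± 0.38 (adjusted p = 0.495), with a 95% interval of -1.17 to 0.44. Against the optimum, 30% inhibition differed by 0.89 ± 0.38 (adjusted p = 0.137), and against 20% inhibition by 0.94 ± 0.38 (adjusted p = 1.00, unadjusted p = 0.0244). Without the array that holds the value below background, the change was -1.25 at the optimum (adjusted p = 0.000219) and -0.75 at 20% inhibition (adjusted p = 0.00581), and that of 0.89 from the optimum to 30% inhibition passed (adjusted p = 0.00318). With all arrays kept but any 1 array of baseline or of the optimum left out, 8 in all, the call at the optimum ended (adjusted p = 0.0511 to 0.0957). The call at 20% inhibition ended with background as a covariate (-1.01, adjusted p = 0.172) and with only these states fitted (adjusted p = 0.0594), and the F-test of PHR20 (adjusted p = 0.0225) ended without baseline replicate 2 (0.0545).

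PHR35 fell at 30% inhibition, and its means in the other warmer states were also below that of baseline. Its signals were 595, 620, 608 and 510 at baseline, 455, 401, 437 and 408 at the optimum, 412, 481, 386 and 577 at 20% inhibition, and 521, 390, 347 and 376 at 30% inhibition. The optimum arrays all lay below the baseline arrays, while 1 array of each inhibited state reached into the baseline range. The log2 change was -0.53 ± 0.16 at 30% inhibition (adjusted p = 0.0141), -0.34 ± 0.16 at 20% inhibition (adjusted p = 0.0963) and -0.45 ± 0.16 at the optimum (adjusted p = 0.0668). The call at 30% inhibition held without any single array but not with background as a covariate, where the change was -0.36 (adjusted p = 0.131). Its F-test passed narrowly (adjusted p = 0.0489) and ended without any of 12 of the 16 arrays, all but baseline replicate 4, replicates 3 and 4 of 20% inhibition and replicate 1 of 30% inhibition.

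PHR24 and PHR25 are next to each other on chromosome 15 of Glycine_max_v4.0, with 0 annotated genes between them. PHR24 had signals of 1029, 953, 1085 and 972 at baseline, 1047, 969, 795 and 946 at the optimum, 1228, 1129, 1386 and 946 at 20% inhibition, and 1207, 1233, 1196 and 1262 at 30% inhibition. The 4 values at 30% inhibition lay above all baseline and optimum values and close together, at 1225 ± 29.2, against 939 ± 105 at the optimum (SD, n = 4). PHR24 rose by 0.39 ± 0.12 at 30% inhibition against the optimum (adjusted p = 0.0395), in a contrast added after seeing the data. Against baseline its change was 0.28 ± 0.12 (adjusted p = 0.0818). The F-test of PHR24 passed at an adjusted p of 0.0497 and ended without any of 14 of the 16 arrays, all but replicate 1 of the optimum and replicate 4 of 20% inhibition. Its call against the optimum ended without any of 8 arrays (adjusted p = 0.0501 to 0.125), which were the 4 of 30% inhibition, optimum replicates 2, 3 and 4, and baseline replicate 1.

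PHR25 showed the smallest differences between states of the 8 genes. It had signals of 1906, 1962, 2092 and 2056 at baseline, 2455, 1978, 1673 and 1769 at the optimum, 1892, 2305, 2291 and 1702 at 20% inhibition, and 1809, 2239, 1767 and 2082 at 30% inhibition. The ranges of all states overlapped, and the baseline arrays were the closest together. Against baseline the log2 difference was -0.03 at 30% inhibition (95% interval -0.31 to 0.25), 0.02 at 20% inhibition (-0.26 to 0.30) and -0.04 at the optimum (-0.32 to 0.24). State accounted for 2.15% of its variance, against 59.0% for PHR24. Once the state means were removed, the 2 neighbours still varied together over the 16 arrays (r = 0.68, the highest of 28 pairs of PHR genes), and whether their probes share sequence was not tested.

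PHR7 fell at 30% inhibition against baseline, while its F-test over the 4 states did not pass (adjusted p = 0.0557). Its signals were 740, 1072, 975 and 930 at baseline, 513, 789, 718 and 1458 at the optimum, 956, 995, 1104 and 1015 at 20% inhibition, and 636, 488, 728 and 530 at 30% inhibition. All 4 values at 30% inhibition lay below all values at baseline and at 20% inhibition, while those of the optimum ran from the second lowest to the highest of the 16. Over all probe sets tested, 34.8% had no overlap between 30% inhibition and baseline, and 2.06% between 30% and 20% inhibition. The mean was 596 ± 108 at 30% inhibition, against 929 ± 139 at baseline (SD, n = 4), a log2 change of -0.65 ± 0.23 (adjusted p = 0.0413). Against 20% inhibition, at 1018 ± 62.6, the change was -0.79 ± 0.23, with an unadjusted p of 0.0038 and an adjusted p of 1.00. Between these 2 states limma called 0 of 30517 probe sets (0.0%). An unadjusted p under 0.05 was found for 1193 of them (3.91%), with PHR7 and PHR20 as the 2 PHR members. That share is no higher than chance alone would give at this threshold, so neither difference is read as a result. Leaving out 1 array ended the call against baseline for 8 arrays (adjusted p = 0.0502 to 0.112), which were baseline replicates 2, 3 and 4, replicates 1, 2 and 4 of 30% inhibition, optimum replicate 2 and 20% inhibition replicate 1. Of 9 other settings the call held in 7. It ended with no filter on dim signals and with background as a covariate (adjusted p of at most 0.0605).

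PHR18 rose at both inhibited states, with wide scatter at baseline. Its signals were 428, 212, 195 and 367 at baseline, 390, 386, 605 and 371 at the optimum, 408, 426, 418 and 610 at 20% inhibition, and 546, 466, 487 and 387 at 30% inhibition. Baseline replicates 2 and 3 were the 2 lowest of the 16, and baseline replicate 1 lay within the range of every warmer state. Against baseline it rose by 0.72 ± 0.25 at 30% inhibition (adjusted p = 0.0326) and by 0.69 ± 0.25 at 20% inhibition (adjusted p = 0.0384), while the change at the optimum was 0.59 ± 0.25 (adjusted p = 0.134). Its F-test did not pass (adjusted p = 0.0797). The call at 30% inhibition ended without baseline replicates 2 or 3 or replicates 1, 2 or 3 of 30% inhibition (adjusted p = 0.0597 to 0.116), and that at 20% inhibition without baseline replicates 2 or 3 or replicates 2 or 4 of 20% inhibition (0.0545 to 0.133). With background as a covariate neither passed (adjusted p = 0.0955 at 30% and 0.173 at 20% inhibition). Nor did either pass with no filter on dim signals (0.0546 and 0.0633) or with only the states compared (0.0552 and 0.0870). The same held without the 3 arrays of highest background (0.0773 and 0.0790), a setting added after seeing the data. Of 8 settings other than single arrays left out, the call held in 4 at 30% and in 3 at 20% inhibition.

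PHR33 passed in no comparison. Its signals were 390, 340, 293 and 353 at baseline, 282, 256, 176 and 185 at the optimum, 271, 391, 364 and 298 at 20% inhibition, and 318, 238, 466 and 264 at 30% inhibition. The optimum arrays lay below the baseline arrays without overlap, while the inhibited states overlapped with both. The log2 change at the optimum was -0.64 ± 0.22 (adjusted p = 0.0735, 95% interval -1.11 to -0.16). At 30% inhibition it was -0.14 (-0.61 to 0.33) and at 20% inhibition -0.06 (-0.54 to 0.41).

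**Figure D2:**
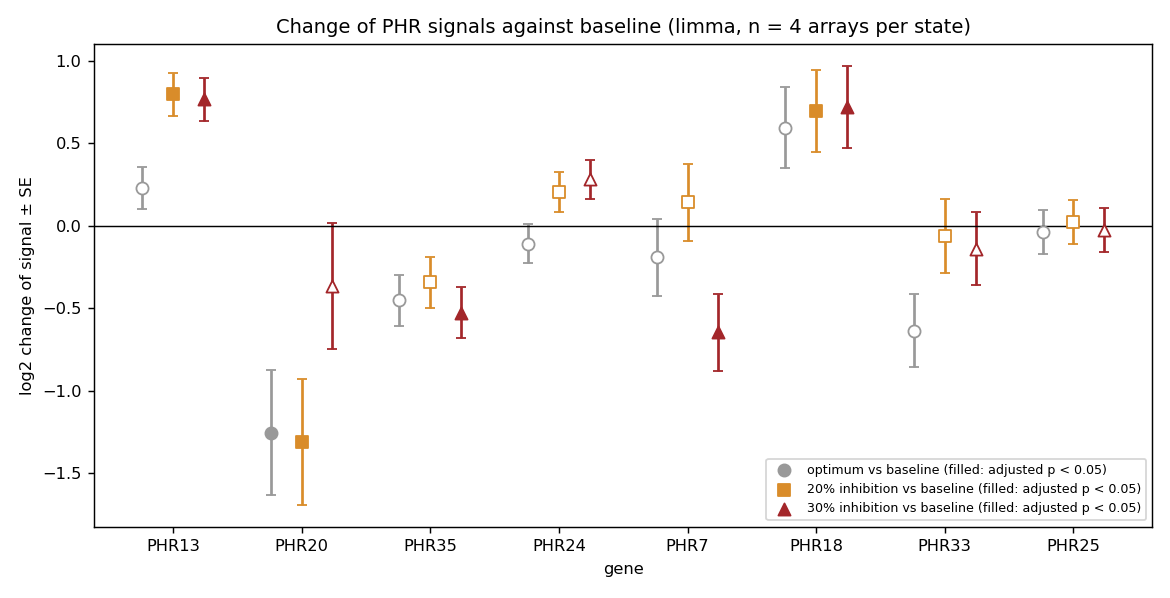
Log2 change of signal ± SE against baseline for each PHR gene at the optimum (circles), 20% inhibition (squares) and 30% inhibition (triangles), from the limma fit with 4 arrays per state, filled where the adjusted p is under 0.05. PHR13 and PHR18 lie above 0 in all 3 states, PHR20, PHR33 and PHR35 below, and PHR25 close to 0.

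At the optimum 3 of 8 genes, PHR20, PHR33 and PHR35, had all 4 values below all baseline values and none had all above, where 19.7% of all probe sets tested had no overlap in either direction. Over the 28 pairs of PHR genes, the correlation of log2 signals across the 16 arrays, which share the 4 states, ran from -0.60 (PHR13 with PHR35) to 0.66 (PHR13 with PHR24), with a median of -0.05 and 13 pairs above 0. After the state means were removed these pairs had r of -0.47 and 0.20.

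Genes of the phosphate pathway other than the PHR genes were taken from a list of SPX sensors, transporters, phosphatases, lipid enzymes and enzymes of organic acid supply. The annotation holds 35 probe sets of 23 such genes, and 27 of 19 genes were tested. At 30% inhibition against baseline 3 rose and 7 fell, 10 of 27 where 34.7% of all probe sets passed, with a median log2 change of -0.39 against -0.01 over all tested. At 20% inhibition 3 rose and 7 fell, 10 of 27 where 35.6% of all probe sets passed, and at the optimum 1 rose and 1 fell, 2 of 27 where 12.9% passed. These totals are near or below the shares over all probe sets. By direction, 16.9% of all probe sets rose and 17.7% fell at 30% inhibition, and 17.0% rose and 18.6% fell at 20% inhibition. At both inhibited states the list thus held a larger share of falls and a smaller share of rises than all probe sets. With 27 probe sets, several of them of the same gene, this is not read as particular to the list.

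SPX3, the 1 gene of the SPX sensors on the list, had signals of 32.1, 106, 101 and 107 at baseline and 215, 161, 131 and 152 at the optimum, then 118, 84.4, 108 and 46.3 at 20% inhibition and 106, 49.7, 176 and 13.4 at 30% inhibition. The optimum arrays were all above the baseline arrays and above background, while 1 of 4 arrays at baseline, 3 of 4 at 20% inhibition and 2 of 4 at 30% inhibition lay below it. The log2 change at the optimum was 1.06 ± 0.65 (adjusted p = 0.329), which did not pass. Without baseline replicate 1, the array below background, it was 0.63 ± 0.65 (adjusted p = 0.627), a fit added after seeing the data. The phosphate transporter genes PHT1-3 and PHT1-8 were too dim to be tested, with 1 of 32 values above background. PT01 and G4DT, which the list's pattern also took, bear the names of dimethylallyl transferases, and the 1 probe set tested, of PT01, did not pass (log2 change of -0.46 ± 0.86, adjusted p = 0.72).

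Among acid phosphatases 1 of 8 probe sets, of 5 genes, rose at 30% inhibition and 0 fell, where 16.9% of all probe sets rose and 17.7% fell. PAP02, a purple acid phosphatase gene by its symbol, reached 900.0 ± 70.4 at 30% inhibition, against 645 ± 91.1 at baseline (SD, n = 4), a log2 change of 0.49 ± 0.16 (adjusted p = 0.0243). PAP3, a purple acid phosphatase gene that the RefSeq table also names phytase, differed by -0.03 ± 0.12 and -0.02 ± 0.11 at its 2 probe sets. PAP25 differed by -0.42 to -0.61 at its 3 probe sets, all with adjusted p of at least 0.198. Their signals spread widely within each state.

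Among galactolipid enzymes 1 of 6 probe sets, of 3 genes, rose at 30% inhibition and 1 fell, again where 34.7% of all probe sets passed. MGD1, of the monogalactosyldiacylglycerol synthases that make the main lipid of chloroplast membranes, had signals of 427, 496, 543 and 390 at 30% inhibition, against 892, 1074, 822 and 963 at baseline. These ranges did not overlap, and the log2 change of MGD1 was -1.02 ± 0.15 at 30% inhibition (adjusted p = 7.05e-05) and -1.34 ± 0.15 at 20% inhibition (adjusted p = 4.38e-06). DGD2, of the digalactosyldiacylglycerol synthases, rose by 0.39 ± 0.12 at 1 of 3 probe sets tested (adjusted p = 0.021). Its other 2 tested probe sets gave 0.43 ± 0.21 and 0.17 ± 0.13 (adjusted p = 0.128 and 0.339). DGD1 differed by -0.19 ± 0.17 and -0.02 ± 0.37 at its 2.

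Among organic acid enzymes 6 of 10 tested probe sets, of 8 genes, fell at 30% inhibition and 1 rose. Of all probe sets tested 17.7% fell and 16.9% rose. These 6 of the list's 7 falls were all of phosphoenolpyruvate carboxylase genes, and 3 of them were probe sets of PEPC7 alone. The enzyme fixes bicarbonate into oxaloacetate, and in phosphate starvation it feeds the making of organic acids. PEPC17 had signals of 1115, 1241, 1142 and 1151 at 30% inhibition, against 5749, 6561, 5947 and 4970 at baseline. Every array at 30% inhibition lay below every baseline array. The log2 change was -2.31 ± 0.11 at 30% inhibition (adjusted p = 1.92e-10), -2.41 ± 0.11 at 20% inhibition (adjusted p = 1.11e-10) and -0.62 ± 0.11 at the optimum (adjusted p = 0.00136). At 30% inhibition the change was -1.21 ± 0.17 for PEPC4, -0.68 ± 0.12 for PEPC16 and -0.52 ± 0.13 to -0.79 ± 0.13 for the 3 of 4 PEPC7 probe sets that were tested (adjusted p of at most 0.00444). Whether close relatives in this family bind the same probes was not tested. PPCK2, of the kinases that phosphorylate this carboxylase, went the other way, with signals of 903, 1426, 1836 and 1613 at 30% inhibition, against 520, 419, 931 and 712 at baseline. PPCK2 rose by 1.18 ± 0.24 at 30% inhibition (adjusted p = 0.00105), by 1.37 ± 0.24 at 20% inhibition and by 1.05 ± 0.24 at the optimum (adjusted p = 0.008). PPCK1, PPCK3 and PPCK4 did not pass at 30% inhibition. PTF1, a transcription factor gene named for tolerance to phosphate starvation, differed by 0.18 ± 0.19 (adjusted p = 0.487).

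**Figure D3:**
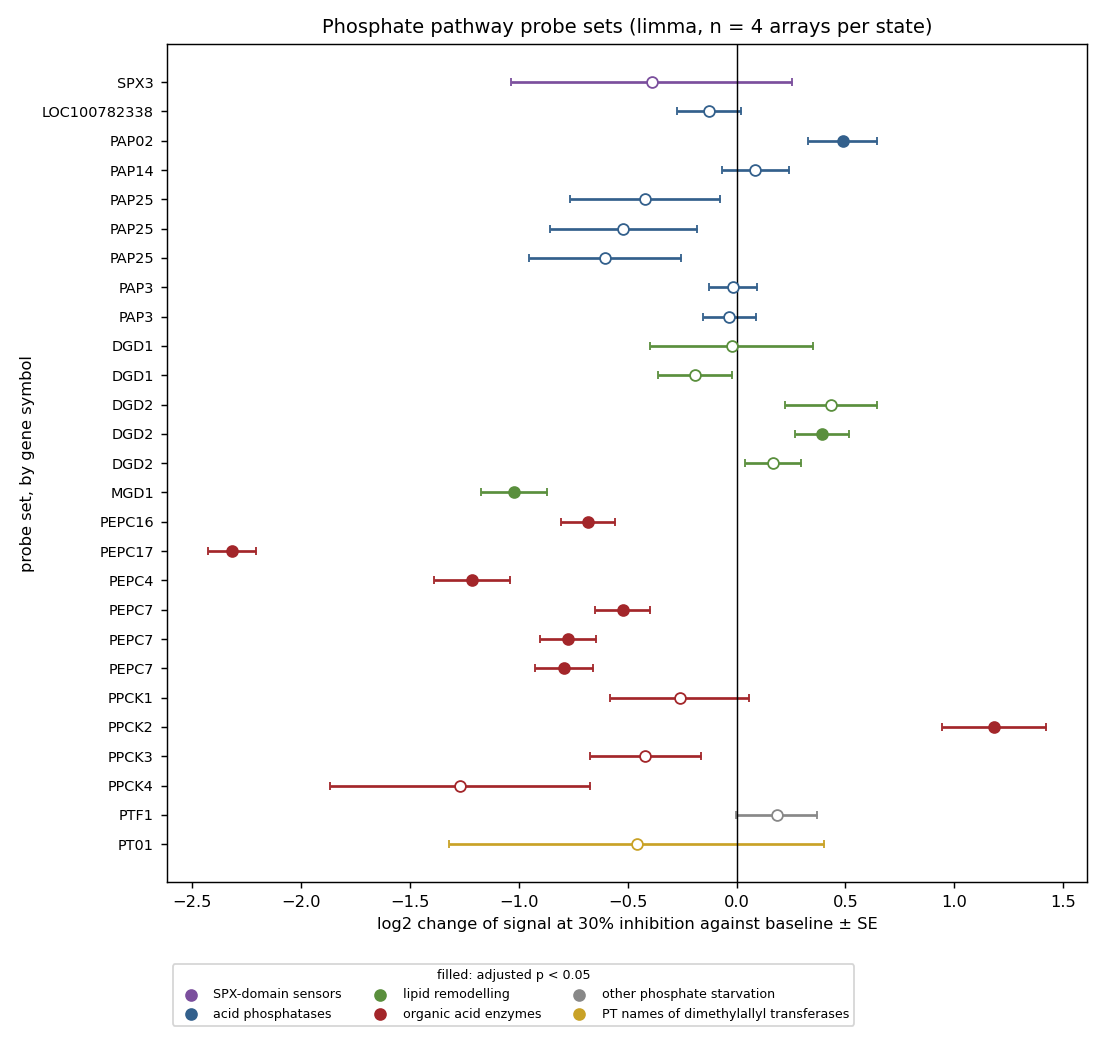
Log2 change of signal ± SE at 30% inhibition against baseline for the 27 tested probe sets of the phosphate pathway list, coloured by class and filled where the adjusted p is under 0.05. The 7 filled points left of 0 are PEPC4, PEPC7, PEPC16, PEPC17 and MGD1, and the 3 right of 0 are PPCK2, PAP02 and DGD2.

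The genes most like PHR13 and PHR20 were sought among 934 tested genes with a product name, by Pearson's r of log2 signal over the 16 arrays. These arrays share the 4 states, so r describes a shared course and nothing more. Most like PHR13 were GSTU37, a glutathione S-transferase gene by its symbol (r = 0.93), PHD4 (r = 0.93) and HSP22.3, a small heat shock protein gene (r = 0.92). GSTU37 changed by 0.99 and PHD4 by 1.27 on the log2 scale at 30% inhibition against baseline, HSP22.3 by 7.02 and PHR13 by 0.76. Without replicate 2 of 20% inhibition these 3 correlations were all 0.93.

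Most like PHR20 were the bZIP factor genes BZIP69 (r = 0.85) and BZIP125 (r = 0.67) and the WRKY factor gene WRKY8 (r = 0.64). BZIP69 averaged 139 at 30% inhibition, 96.0 at 20% inhibition and 87.9 at the optimum, against 253 at baseline. Only 10 of its 16 values lay above background, and its F-test did not pass (adjusted p = 0.143). Without replicate 2 of 20% inhibition r was 0.65 for BZIP69, 0.49 for BZIP125 and 0.63 for WRKY8. WRKY8 stayed low at 30% inhibition, with a log2 change of -1.61 against baseline, where that of PHR20 was -0.37. As for BZIP69, only 10 of 16 WRKY8 values lay above background. The WRKY8 mean of 90.3 at 30% inhibition was below the mean background of 112, so the size of this fall is uncertain.

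**Figure D4:**
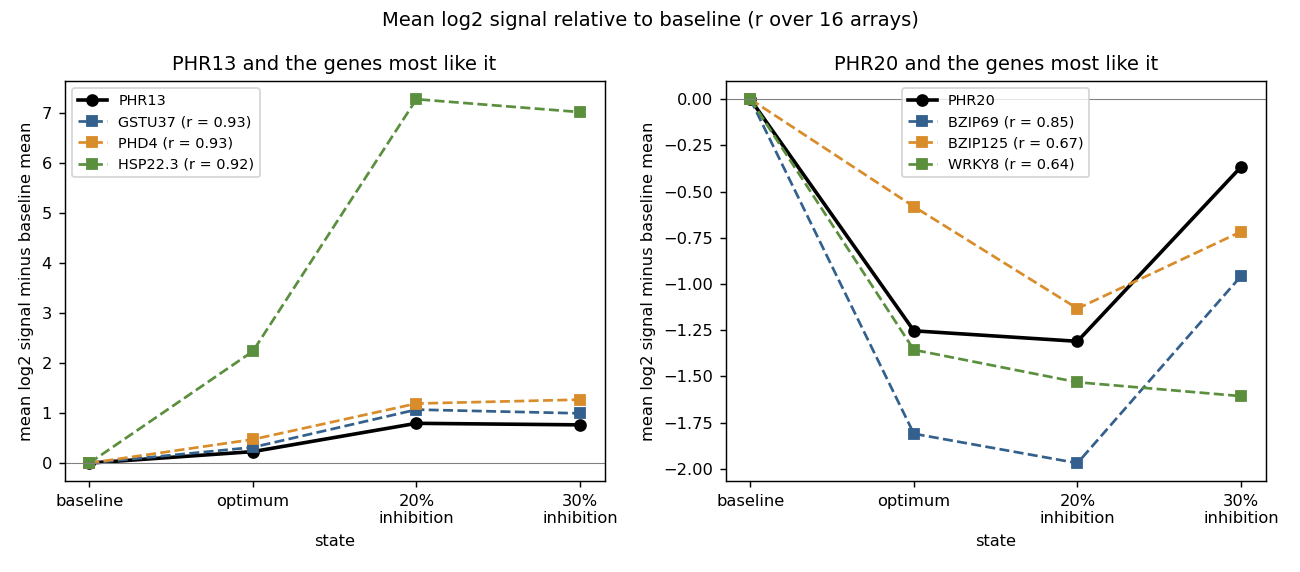
Mean log2 signal of each state minus the baseline mean, for PHR13 (left) and PHR20 (right, solid black) and the 3 genes most correlated with each over 16 arrays (dashed). The PHR13 course steps up at 20% inhibition, and HSP22.3 follows it on a scale reaching 7.27, while the means of PHR20 and BZIP69 are lower at the optimum and at 20% inhibition than at 30% inhibition, that of PHR20 at 20% inhibition including the 1 value below background.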

How the data were processed

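Leaf RNA was measured on 16 arrays. The files hold intensities on a linear scale, deposited as MAS5 signals per the submitters' processing notes. The sources used here give neither its version nor its settings. The authors had scaled each array to a common level, the mean without the top and bottom 2% being 500.0 in each. Intensities were taken to log2 with no further normalization. Probe sets with a mean log2 signal above the median of 6.08 were tested, 30517 in all, with limma 3.58.1 under R 4.3.3 (a mean per state over all 16 arrays, a prior variance following the mean, two-sided, Benjamini-Hochberg adjusted, threshold 0.05). The fit was run on simulated data with independent noise for each probe set, which does not cover the differences in background between these states. The background level was the 95th percentile of probe sets named PsAffx or HgAffx on each array. Correlations and array checks used pandas 2.3.3 and scipy 1.17.1. No 2 arrays were identical, and 4 arrays per state limit the precision.

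Members are single-gene probe sets whose symbol, or a synonym in RefSeq's Glycine_max_v4.0 table, is PHR plus digits. That table has no descriptions, so a planned exclusion by description was not applied. No coordinates are printed because the array names no build, and no sequences were at hand. PHR genes were ordered by F, with PHR25 placed beside its neighbour PHR24, and all pathway genes past the threshold at 30% inhibition were named. For the 2 PHR genes of highest F, the 3 named genes of highest r were taken. The members and lists were chosen with earlier results of these data known. The labels do not say that replicate numbers pair the arrays, so no block was used. The contrast of 30% inhibition against the optimum was added after seeing the data. Alternatives covered scaling, filter, added constant, background, block, states fitted and single arrays.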

Additional observations from a re-analysis of the deposited data

Results flagged for a closer look

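Of 32 sets of 4 arrays (8 PHR genes in 4 states), 2 held an array far from the other 3, where chance gives about 1 in 20. Both were of PHR18. Optimum replicate 3 had a signal of 605, against 390 for the next highest array of that state. Replicate 4 of 20% inhibition had 610, against 426 for the next highest. Without the first, the log2 change of PHR18 at the optimum was 0.43 (adjusted p = 0.338), and without the second that at 20% inhibition was 0.55 (adjusted p = 0.109).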

How the results depend on the processing

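The PHR13 calls against baseline held in every setting run. Counts of PHR genes called moved by over 1.5 times as follows. At the optimum against baseline 1 passed, but 0 after quantile normalization, with no filter or above the upper quartile of signal, and 2 with only these states fitted or without the 3 arrays of highest background, a setting added after seeing the data. At 20% inhibition against baseline 3 passed, but 1 above the upper quartile (where the dimmer PHR genes are not tested), with only these states or with background as a covariate. At 30% inhibition against baseline 4 passed, but 2 with no filter or above the upper quartile and 1 with the covariate. From the optimum to 20% inhibition 1 passed, but 0 with the covariate and 2 without the 3 arrays. From the optimum to 30% inhibition 2 passed, but 1 with no filter, the replicate block or the covariate. By the F-test 4 passed, but 2 after quantile normalization, with no filter, with dim signals set at background, with the block or without the 3 arrays, and 1 with the covariate. Single arrays left out gave 0 to 2 at the optimum, 2 to 4 at 30% inhibition against baseline, 1 to 2 from the optimum to 20% inhibition, 1 to 3 to 30% inhibition, and 1 to 4 by the F-test. The covariate also lowered the calls over all probe sets, to 7070 at 20% inhibition against baseline (10863 without it), 2223 from the optimum to 20% (5059), 2739 from the optimum to 30% (4267) and 6960 by the F-test (10829). Without the 3 arrays 2866 passed from the optimum to 20% and 2 from 20% to 30% inhibition. The 3 arrays were replicates 2 and 3 of 20% inhibition and 3 of 30% inhibition. Without them PHR20 differed by 0.69 from the optimum to 20% inhibition (adjusted p = 0.0359), against -0.06 with all arrays. The replicate block changed these PHR calls: PHR18 at 20% inhibition against baseline (adjusted p = 0.0543), PHR24 at 30% inhibition against the optimum (0.0628), and the F-tests of PHR24 (0.082) and PHR35 (0.0811). Same-numbered arrays had r of -0.28 to 0.22 (median 0.05, against 0.00 for other pairs), so not every pair passed the 0.1 required to treat the numbers as pairs, although 8 of 16 arrays correlated best with their own number, a hint of pairing from the data and not the design. The cause of these moves was not tested. Quantile scaling shifted the median of all probe sets by under 0.05 on the log2 scale in each contrast. Signals close to background, as for SPX3 and the PHT genes, limit what the arrays can show.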
